A study of Mus musculus with 18 samples.

Results

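The cells described here are natural killer (NK) cells that carry Cre-mediated deletion of both Hif1a and Ahr and were kept at 1% oxygen. The data are the 6 libraries of the double-floxed line, 3 labelled Hif1a Ahr KO and 3 labelled Hif1a Ahr flox, of 18 libraries in the series. The Hif1a Ahr flox group has the genotype Hif1a fl/fl, Ahr fl/f as the label spells it, and no Cre. The Hif1a Ahr KO group carries Ncr1 iCre together with Hif1a fl/fl and with Ahr fl/fl. NK cells came from mouse spleen. Culture lasted 7 days in all groups, with oxygen held at 1% and recombinant human IL-2 added at 1700 U/ml, so that normal oxygen is not part of the comparison. The Cre is expressed under Ncr1, the gene for the NK receptor NKp46. No group carries Ncr1 iCre without a floxed gene, so that an effect of the Cre allele and an effect of losing both factors cannot be told apart. The other 12 libraries are the matching KO and flox groups of the Hif1a line and of the Ahr line, again 3 each. The labels call the samples biological replicates and give no age or sex of the mice.

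HIF-1α is the part of the HIF-1 complex whose amount follows oxygen. Prolyl hydroxylases mark it for destruction while oxygen is available, and in hypoxia it pairs with ARNT and switches on glycolysis, glucose uptake and lactate export. The aryl hydrocarbon receptor, AhR, is a ligand-activated factor that uses the same partner, ARNT, and induces detoxifying enzymes together with its own repressor. In innate lymphocytes, AhR is also known for supporting tissue-resident cells.

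Each library held 54731932 to 55466444 estimated counts, and 16747 genes passed the filter on low counts. Levels are given as CPM, counts scaled to the library total of the tested genes, adjusted by the library's TMM scaling factor. They are not corrected for gene length and are compared only between groups for the same gene. A gene is called changed where the Benjamini-Hochberg adjusted p of edgeR's quasi-likelihood test was under 0.05 over all 16747 genes. All adjusted p-values below come from that test, and all changes are log2 fold changes of Hif1a Ahr KO over Hif1a Ahr flox unless another comparison is named.

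The floxed genes were read first. Hif1a counts were 58.2, 58.7 and 62.4 CPM in the flox libraries and 185, 220.0 and 170.4 CPM in the KO libraries, a rise by 1.68 on the log2 scale (SE 0.11, adjusted p = 3.07e-09). Ahr counts were 78.1, 52.2 and 68.8 CPM and 57, 41.4 and 68.2 CPM, and were not called changed (-0.26, SE 0.20, adjusted p = 0.374). In an edgeR fit with a block for the replicate number, Ahr was called lower (-0.266, adjusted p = 0.0162). The Hif1a and Ahr values are both counts over whole genes, which cannot show whether a floxed exon is missing. Neither value therefore checks the deletion. Ncr1, the gene that the Cre is named after, was 129, 101 and 129 CPM without Cre and 249, 244 and 255 CPM with it. This was a rise by 1.06 (adjusted p = 5.19e-07). The labels do not say where in the genome the Cre lies. Its change was 0.92 in the Hif1a line and 0.97 in the Ahr line, so that Ncr1 was higher wherever the Cre was present.

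NK cell markers were present in all 6 libraries. Of 15 NK markers, 5 rose, 1 fell and 9 were not called, and their summed level was 29422 to 34431 CPM in flox and 26767 to 27856 CPM in KO libraries. T cell markers summed to 572.5 to 625 CPM in flox and 495 to 519 CPM in KO libraries, with 2 of 12 members higher and 2 lower. Cd3g and Cd3d, chains of the CD3 complex, fell from 79.1, 82.2 and 89.2 CPM to 8.34, 4.26 and 13.1 CPM and from 32.1, 30.8 and 35.7 CPM to 7.16, 3.73 and 9.15 CPM. Cd6 and Trdc were the 2 members called higher, Trdc by 0.50 (adjusted p = 0.00417). In the fit on the 6 libraries the call of Trdc was lost (0.0535). The T cell receptor constant gene Trbc1, which NK cells also transcribe, had means of 322 and 312 CPM and was not called (-0.05). Neutrophil markers were low, with sums of 1.26 to 7.75 CPM in flox and 0.157 to 0.395 CPM in KO libraries. All 5 tested neutrophil markers were called lower in KO, 3 in the fit on the 6 libraries. The call of Mpo (adjusted p = 0.0343) was lost on leaving out any library except flox replicate 3, with adjusted p-values of 0.0569 to 0.129. Elane was at 0 in all 3 KO libraries. B cell markers summed to 53.7 to 67.6 CPM in flox and 100.4 to 127 CPM in KO libraries, which was nearly all Ighm, while Ms4a1, Cd79a and Pax5 did not pass the filter. Dendritic cell markers summed to 143 to 219.9 CPM in flox and 266 to 311 CPM in KO libraries, mostly Itgax, which NK cells can express, while Flt3, Clec9a and Siglech did not pass. Macrophage markers summed to 38.6 to 46.3 and 38.3 to 47.6 CPM, and mast cell and basophil markers to 95.6 to 166 and 37.4 to 70.0 CPM. Plasma cell, erythroid, platelet and stromal lists had no called member. The part of other cells in the changes below was not tested.

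Nearly every pathway examined held genes that differed between the groups. Of 16747 genes, 2482 were higher (14.8%) and 2763 were lower (16.5%) in Hif1a Ahr KO, 31.3% in all. Counts of called genes within the lists below stand beside these shares. Changes of at least 2-fold were more often falls, with 902 genes lower (5.39%) and 479 higher (2.86%). At a threshold of 1.5-fold, 1402 were lower (8.37%) and 968 higher (5.78%). The median change over all genes tested was -0.02. Fitted on the 6 libraries alone, without the spread of the other 12, 1544 genes were higher and 1556 lower. Leaving out each of the 6 libraries in turn gave 1829 to 2638 higher and 1963 to 2890 lower genes.

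The double KO libraries stood apart from all other groups. On the first principal component of the 1000 most variable genes, which held 64.0% of the variance, the 3 double KO libraries lay at 23.7 to 29.0 and the Hif1a KO libraries at 28.5 to 34.3. All flox and Ahr KO libraries lay between -19.9 and -6.33. On the second component, with 17.5% of the variance, the double KO libraries lay at 7.26 to 21.4 and the Ahr KO libraries at 11.8 to 18.7. Every other library was below 0 on that axis. The double KO lay at the Hif1a KO end of the first axis and at the Ahr KO end of the second.

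**Figure D1:**
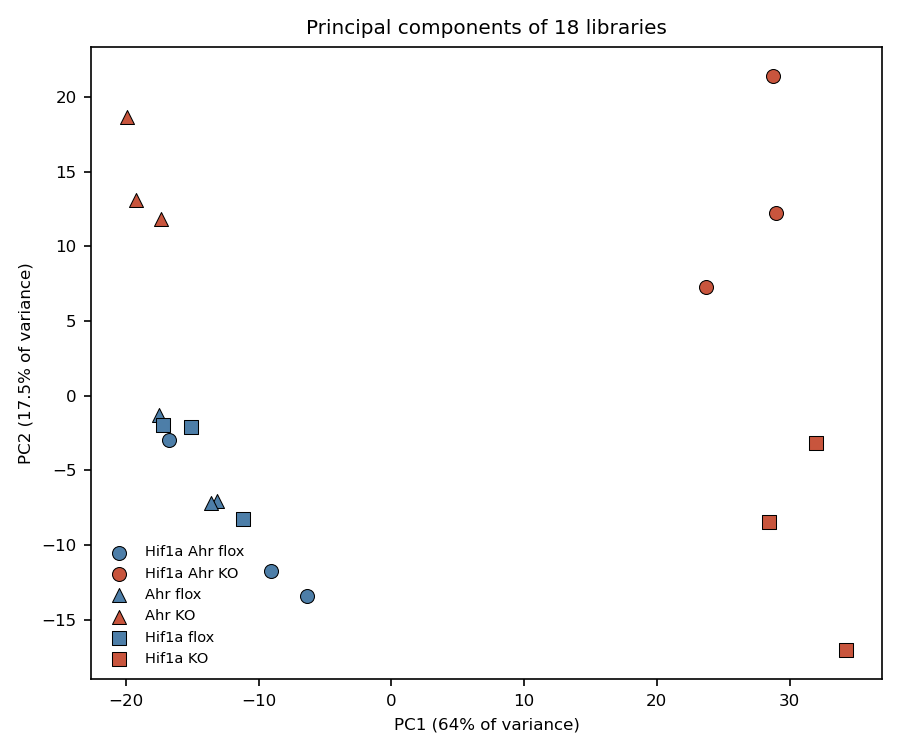
First against second principal component of log2 CPM for the 18 libraries, with 1 point per library, marker shape for the mouse line and colour for flox (blue) or KO (red). The 3 Hif1a Ahr KO circles sit at 23.7 to 29.0 on the first and 7.26 to 21.4 on the second component, a corner that no other group reaches.

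Transcripts for glucose use were lower along the whole pathway. Of 20 glycolysis and glucose or lactate transport genes tested, 18 fell, none was called higher (Eno2 was without KO replicate 1) and the list's median was -1.88, against -0.02 over all genes. These 20 genes held 3.332, 3.396 and 3.339% of all counts in the flox libraries and 0.9912, 0.8545 and 0.9289% in the KO libraries. The mean share went from 3.36% ± 0.0353 to 0.925% ± 0.0684 (SD, n = 3), with no overlap. In such bulk RNA, fewer cells of a kind and less RNA per cell cannot be told apart.

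At the point of entry, the glucose transporter gene Slc2a1 was 408, 488 and 381 CPM in flox and 119.8, 121 and 119 CPM in KO libraries, 3.55-fold lower (adjusted p = 1.04e-10). Hk2, the inducible hexokinase, went from 221, 209 and 196 CPM to 69.3, 50.0 and 56.9 CPM (-1.83, SE 0.10). Pfkl, a subunit of phosphofructokinase, shared the smallest adjusted p of the list with Aldoa. It was 342, 378 and 377 CPM in flox and 67.2, 47.9 and 58.6 CPM in KO libraries, 6.31-fold lower (SE 0.10 on the log2 scale, adjusted p = 1.32e-11). The groups were far apart for each of these genes, and the flox libraries differed among themselves by much less than the groups did.

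Further down, Aldoa (aldolase) fell from 3348, 3723 and 3328 CPM to 915, 830.4 and 908 CPM, and Eno1 (enolase) from 4969.7, 5236 and 5548 CPM to 1247, 992 and 1187 CPM. Pgk1, which makes ATP from a triose intermediate, fell by 2.19, and Pkm, which makes it at the last step, fell by 1.93. Gapdh fell from 5257, 5362 and 5329.7 CPM to 1821, 1697 and 1726 CPM (adjusted p = 1.57e-10). Ldha, which turns pyruvate into lactate, was 2894, 3423 and 3455 CPM and then 962, 836 and 945 CPM. The lactate exporter Slc16a3 had the largest fall of the list, from 387, 387 and 365 CPM to 43.7, 24.6 and 38.7 CPM (10.6-fold lower, adjusted p = 1.02e-09). The other carrier, Slc16a1 (0.09), and the enolase gene Eno2 (0.89) were not called.

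Side branches of the pathway changed in part. Pdk1, a kinase that inhibits pyruvate dehydrogenase, was 261, 275 and 235 CPM in flox and 55.6, 38.5 and 55.2 CPM in KO libraries (-2.37, adjusted p = 1.04e-10). Of 14 genes of pyruvate entry and its kinases, 3 fell and 3 rose, beside 16.5% lower and 14.8% higher over all genes. Of 15 glycogen genes, 7 fell and none rose, among them Pgm1 (-1.81), the branching enzyme Gbe1 (-1.49) and the glycogen phosphorylase Pygl (-3.12, SE 0.39). In the pentose phosphate pathway 4 of 7 genes fell, led by Pgd (-0.69), while its first enzyme G6pdx rose by 0.49.

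Most HIF targets outside sugar metabolism fell, 28 of 33 tested, with a median of -1.80 and none higher. Vegfa, the endothelial growth factor, was 218, 316 and 201 CPM in flox and 51.5, 46.6 and 38.5 CPM in KO libraries (-2.43, adjusted p = 7.59e-08). Bnip3, a receptor for the removal of mitochondria, went from 343, 413 and 331 CPM to 45.4, 25.2 and 37.5 CPM, and its relative Bnip3l fell by 1.53. The adenylate kinase Ak4 was 68.8, 73.6 and 58.8 CPM and then 6.42, 2.89 and 4.23 CPM, 14.9-fold lower. The collagen prolyl hydroxylase P4ha1 fell by 2.67 and the cytokine gene Mif by 1.86. Selenbp1 fell by 3.38, against -1.40 after Hif1a deletion and -0.80 after Ahr deletion, and the double effect differed from both (adjusted p = 0.000734 and 6.78e-06).

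Genes of the oxygen sensors were also lower. Egln3, a HIF prolyl hydroxylase that HIF itself induces, was 260.4, 398 and 238 CPM in flox and 26.7, 14.9 and 23.9 CPM in KO libraries (-3.77, SE 0.30, adjusted p = 5.46e-07). Egln1, the main sensor, fell by 1.22, and the HIF partner Arnt2 from 46.2, 40.9 and 42.3 CPM to 12.7, 5.16 and 11.4 CPM. Among 20 oxygen-dependent histone, DNA and RNA demethylases, 11 fell and 1 rose, or 7 and 1 in the fit on the 6 libraries alone, and 2 rose without flox replicate 2, flox replicate 3 or KO replicate 3. Kdm4b fell by 1.68, Kdm3a by 1.40, the RNA demethylase Alkbh5 by 0.97 and Kdm5b by 1.01, while Kdm7a rose by 0.68.

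The AhR battery, the genes that AhR is known to induce, fell in part. Of 14 tested, 8 fell and 2 rose, with a median of -1.66. Asb2, part of a ubiquitin ligase, was 253, 193 and 311 CPM in flox and 47.3, 17.7 and 44.8 CPM in KO libraries (-2.79, SE 0.32, adjusted p = 2.08e-05). Ahrr, the receptor's repressor, was 47.6, 30.6 and 70.9 CPM and 11.2, 3.53 and 10.1 CPM, 6.01-fold lower (adjusted p = 0.000875). The transcriptional repressor gene Hic1 went from 55.9, 33 and 68 CPM to 13.5, 5.83 and 14.6 CPM and Tiparp, a further negative regulator of AhR, from 106, 86 and 166 CPM to 35.6, 20.1 and 42.7 CPM. In all these genes flox replicate 2 was the lowest flox library and KO replicate 2 the lowest KO library, and the groups did not overlap.

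Scin, an actin-severing protein gene, fell in both single lines and in the double line. It was 362, 312 and 348 CPM in flox and 105, 37.6 and 61.8 CPM in KO libraries, a change of -2.32, against -1.31 for Hif1a deletion and -1.59 for Ahr deletion. The differences of the double effect from either were not called (adjusted p = 0.144 and 0.27). Cyp1a1, the classical AhR target, was barely expressed, at 0.162, 0.131 and 1.46 CPM in flox and 0, 0.0355 and 0.0874 CPM in KO libraries. Its call (adjusted p = 0.0252) was lost without flox replicate 3, which alone exceeded 1 CPM (0.258), without KO replicate 1 (0.0726) and without KO replicate 2 (0.0838). Cyp1b1 (-2.54, adjusted p = 0.0606) was not called, but was without flox replicate 2 (0.0289) and without KO replicate 3 (0.046). Nqo1 (0.47) was not called, but was without flox replicate 1 (0.785, adjusted p = 0.0271).

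Both battery members that rose did so after Hif1a deletion alone as well (3.49 and 0.74). Ugt1a6a, a glucuronosyltransferase, was 0.579, 0.251 and 2.01 CPM in flox and 19.2, 22.6 and 18.8 CPM in KO libraries (4.40, adjusted p = 8.55e-06). Its neighbours in the Ugt1a cluster also rose, Ugt1a10 by 4.61, Ugt1a9 by 4.18 and Ugt1a7c by 2.46. These genes share their last exons, so that the split of counts between them is uncertain. Slc7a5, an amino acid transporter, rose from 164, 225 and 147 CPM to 466, 699.9 and 438 CPM (1.58, adjusted p = 7.81e-05).

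Promoters are shown for 3 genes to place the binding motifs beside these falls: the fallen gene with the smallest adjusted p in glycolysis, in the other HIF targets and in the AhR battery that has a motif in its RefSeq promoter. Each run is the 250 bases before the start site, 5′ to 3′ on the gene's strand, in RefSeq's GRCm38.p6 coordinates, which is not the build of the counts. Pfkl lies at chr10:78009808-78010057 (minus strand), Narf, whose product resembles iron-only hydrogenases and which fell by 2.43, at chr11:121236986-121237235 (plus strand), and Asb2 at chr12:103356002-103356251 (minus strand, the first of its 2 listed promoters). Capitals mark ACGTG, a core of the HIF element, GCGTG, the core of the AhR element, and TNGCGTG, which contains the latter, on either strand. GCGTG can also serve as a core of the HIF element, so these letters do not assign a promoter to either factor.
Pfkl: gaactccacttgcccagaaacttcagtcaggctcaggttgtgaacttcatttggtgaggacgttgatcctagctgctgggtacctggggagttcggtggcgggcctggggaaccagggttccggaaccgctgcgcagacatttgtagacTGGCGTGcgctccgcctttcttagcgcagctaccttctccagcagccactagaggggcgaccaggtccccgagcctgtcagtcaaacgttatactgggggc
Narf: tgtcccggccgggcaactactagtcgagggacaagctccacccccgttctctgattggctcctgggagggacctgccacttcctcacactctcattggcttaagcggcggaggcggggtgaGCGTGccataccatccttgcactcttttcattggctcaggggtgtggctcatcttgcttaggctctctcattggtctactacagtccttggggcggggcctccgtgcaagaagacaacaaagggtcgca
Asb2: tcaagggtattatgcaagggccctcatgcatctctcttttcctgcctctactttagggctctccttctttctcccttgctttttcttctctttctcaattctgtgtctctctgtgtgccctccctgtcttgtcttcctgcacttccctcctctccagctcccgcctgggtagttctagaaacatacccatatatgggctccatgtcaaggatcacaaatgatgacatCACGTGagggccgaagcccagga
Pfkl has TNGCGTG at 95 to 101 bases before its start, Narf has GCGTG at 125 to 129 bases, and Asb2 has ACGTG on both strands, overlapping, at 18 to 23 bases.

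Over RefSeq promoters of 11040 tested genes, ACGTG and GCGTG were no more frequent among fallen genes than among all, and TNGCGTG differed little. ACGTG stood in 20.1% of 737 promoters of genes at least 2-fold lower, in 14.3% of 398 promoters of genes at least 2-fold higher and in 21.0% of all 13981. GCGTG stood in 34.2%, 27.6% and 42.3%, and TNGCGTG in 6.51%, 4.27% and 6.25%. These are counts of letters in a window and do not show binding.

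Transcripts of the mitochondrial genome rose. Of 13 protein-coding genes, 12 were higher and none lower, with a median of 1.00, and mt-Nd3 (0.50) was not called, but was in the fit on the 6 libraries (0.0228) and with DESeq2 (0.0262). Their share of all counts was 1.838, 1.79 and 1.673% in flox and 3.265, 4.138 and 4.087% in KO libraries, a mean of 1.77% ± 0.0851 against 3.83% ± 0.490 (SD, n = 3). mt-Co1, the catalytic subunit of cytochrome oxidase, was 8048, 8695 and 7333 CPM in flox and 14397, 18233 and 18044 CPM in KO libraries (1.07, adjusted p = 3.96e-06). mt-Cytb rose by 1.69, mt-Atp6 by 1.29, mt-Co3 by 1.14, mt-Nd4 by 1.07 and mt-Nd1 by 0.79. The mitochondrial share is also read as a sign of cell and RNA quality, and its part in the other changes was not tested.

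Nuclear genes of respiration were called in both directions, no more often than genes as a whole (14.8% higher and 16.5% lower). Of 42 nuclear-encoded respiratory chain genes, 6 rose and 5 fell, with a median of 0.03 (-0.015 to 0.087 on leaving out single libraries). In the fit on the 6 libraries alone, 2 rose and none fell. The counts of the full fit moved with single libraries: 13 rose and none fell without flox replicate 3, and 12 fell without KO replicate 1. No member fell without KO replicate 2 or KO replicate 3, and 3, 2 and 3 rose without flox replicate 1, flox replicate 2 and KO replicate 2. Ndufa4 rose by 0.78 in the full fit (adjusted p = 0.000108), and Cs, citrate synthase of the TCA cycle, by 0.47 (adjusted p = 2.1e-05). Ndufa2 fell by 0.41 and Ndufa10 by 0.26, but neither was called in the fit on the 6 libraries (0.0975 and 0.116).

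Cholesterol synthesis genes were lower. Of 24 cholesterol synthesis genes, 15 fell and none rose, with a median of -0.57, and 9 fell in the fit on the 6 libraries alone. Without flox replicate 2, 10 fell and the median was -0.308. Fdps, an enzyme of the isoprenoid branch point, was 309, 428 and 280.2 CPM in flox and 173, 178 and 155 CPM in KO libraries (-1.01, adjusted p = 1.66e-05). Insig1, which retains the sterol sensor SCAP, fell by 0.77, and the cyclase gene Lss by 0.85. Fatty acid synthesis and desaturation was split, with 8 of 19 genes lower and 5 higher, 5 and 5 in the fit on the 6 libraries, and 5 lower and 6 higher without flox replicate 2. The desaturase Scd1 went from 12.1, 24 and 4.2 CPM to 1.13, 0.869 and 0.603 CPM (-3.95, adjusted p = 0.00316). This call was lost with limma voom (0.0602), and the flox libraries themselves spread over several fold. Fasn, fatty acid synthase, fell by 0.43, while the elongase Elovl7 rose by 2.16 (adjusted p = 5.54e-09).

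In the amino acid response, the programme of the factor ATF4, 12 of 23 genes rose, with 1 lower (2 without flox replicate 1) and a median of 0.57. Asns, asparagine synthetase, was 80.3, 113 and 63.9 CPM in flox and 185, 234 and 128 CPM in KO libraries (1.09, adjusted p = 0.00596). Sesn2, an inhibitor of mTORC1, rose by 0.94, the mitochondrial folate enzyme Mthfd2 by 0.82 and the transporter subunit Slc3a2 by 0.74. The lipoprotein receptor Vldlr, which HIF also induces, was the member that fell (adjusted p = 6.02e-05). Atf4 itself was not called (-0.11), nor was Ddit3 (-0.38), which was without flox replicate 1 (0.0259).

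Few cell cycle genes were called, with a median of -0.05 over 42 genes (-0.137 to -0.021 on leaving out single libraries), 4 lower and 1 higher. Mki67, the proliferation marker, was 526, 404 and 411 CPM in flox and 524, 400.0 and 379 CPM in KO libraries, and the groups overlapped. The same list had a median of 0.44 after Hif1a deletion alone and -0.36 after Ahr deletion alone. The double effect was lower than the Hif1a effect in 18 of the 42 genes and higher than the Ahr effect in 11. The small counts within the double comparison moved with single libraries, to 4 higher and 2 lower without flox replicate 1, to none higher and 7 lower without flox replicate 2, to none higher and 2 lower without flox replicate 3, and to 2 lower without KO replicate 2. Cdkn1b, which encodes the cycle inhibitor p27, fell by 0.51 (adjusted p = 0.000425).

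**Figure D2:**
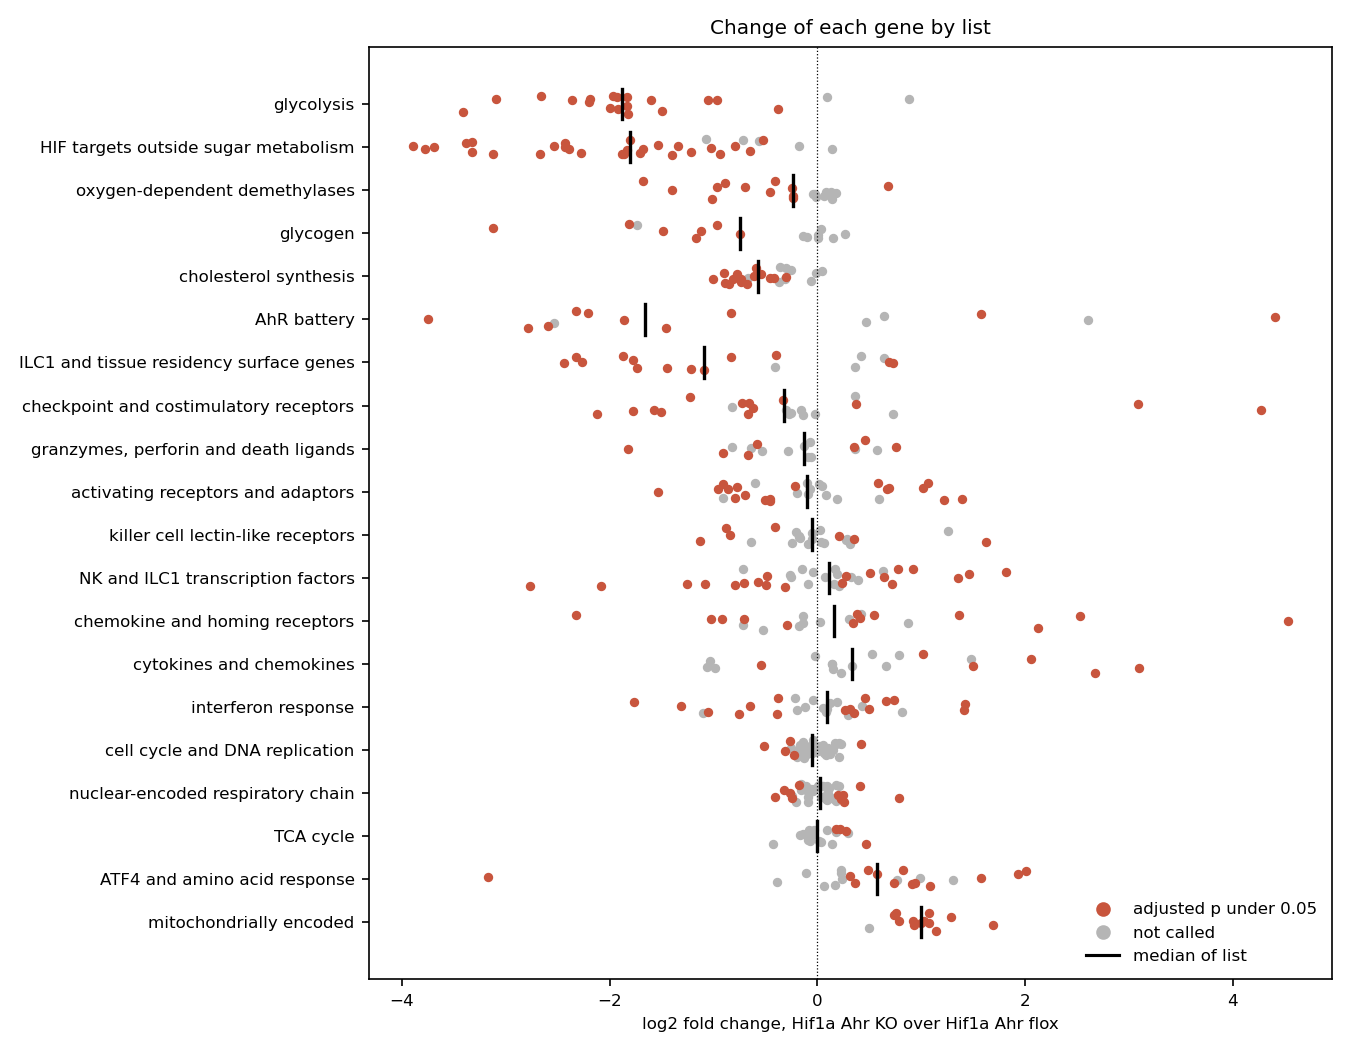
Log2 fold change of Hif1a Ahr KO over Hif1a Ahr flox (horizontal axis) for every tested gene of 20 gene lists, 1 point per gene, red where the adjusted p is under 0.05, with a black bar at the list's median. Glycolysis and the other HIF targets lie to the left with medians of -1.88 and -1.80, and the mitochondrially encoded genes to the right with a median of 1.00.

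Cytotoxic genes were called in both directions. Of 17 granzyme, perforin and death ligand genes, 4 fell and 3 rose, with a median of -0.13. These counts are not far from the shares over all genes, 16.5% lower and 14.8% higher. Gzmb, the main apoptosis-inducing granzyme, was 12637, 15179 and 12018 CPM in flox and 13109, 12663 and 11681 CPM in KO libraries, and the groups overlapped. Perforin, Prf1, was 2242, 3816 and 2042 CPM and 1803, 2066 and 1724 CPM and was not called (-0.53, adjusted p = 0.2). Its change was -2.32 after Hif1a deletion alone, and the difference between these effects was called (adjusted p = 0.0199).

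Of the other granzyme genes, 4 fell and 1 rose, while Gzme (-0.64), Gzmf (-0.82) and Gzmk (0.58) were not called. Gzma was 9349.6, 9205 and 9224 CPM in flox and 6703, 5821 and 6026 CPM in KO libraries, 1.5-fold lower (adjusted p = 0.000155), and Gzmc was 10205, 10296 and 13118 CPM and 8342, 5895 and 6900.5 CPM, 1.59-fold lower. Gzmg fell by 1.82 (adjusted p = 0.0154) and Gzmd by 0.91 (adjusted p = 0.0465), with wide spread. Their calls rest on single libraries. The adjusted p for Gzmd was 0.206 without flox replicate 2, 0.0502 without flox replicate 3, 0.101 without KO replicate 2 and 0.166 without KO replicate 3. That for Gzmg was 0.0748 without flox replicate 2, 0.0574 without KO replicate 2, 0.0636 without KO replicate 3. Without KO replicate 2 or KO replicate 3, 2 genes of the list fell. Gzmm rose by 0.76 (adjusted p = 0.0024) and Fasl, the death ligand, by 0.46 (adjusted p = 0.000561). The third gene called higher, the granzyme inhibitor gene Serpinb9 (0.36, adjusted p = 0.0458), kept its call on leaving out single libraries only without KO replicate 3.

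Of 19 cytokine and chemokine genes tested, 5 rose and 1 fell. Lif, of the IL-6 family, was 4.67, 4.88 and 2.71 CPM in flox and 34.8, 31.5 and 38.8 CPM in KO libraries, 8.58-fold higher (adjusted p = 3.69e-10). Tnf was 7.87, 5.46 and 12.3 CPM and 34.3, 24.5 and 48.1 CPM (2.06, SE 0.36, adjusted p = 0.000701). Osm rose from 43.4, 48.9 and 30.9 CPM to 83.6, 77.8 and 88.9 CPM, and Il18, a member of the IL-1 family, rose by 2.68. Without flox replicate 3, 8 members rose, and none fell without KO replicate 1 or KO replicate 2. Ifng, the hallmark NK cytokine, was 58.5, 50.2 and 115 CPM in flox and 92.5, 83.2 and 146 CPM in KO libraries and was not called (0.53, adjusted p = 0.23), although without flox replicate 3 it was (0.0179).

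Receptors that decide where NK cells travel changed in both directions. Ccr7, the chemokine receptor that guides cells into lymph nodes, rose from 1.1, 1.03 and 1.58 CPM to 4.41, 4.42 and 12.6 CPM (2.53, adjusted p = 0.00466), with KO replicate 3 highest. Gpr183, an oxysterol receptor, rose from 2.39, 1.46 and 1.89 CPM to 4.38, 4.47 and 6.02 CPM (1.37, adjusted p = 0.000194). Cxcr6, which holds lymphocytes in liver and other tissues, went the other way, from 149, 92.7 and 149 CPM to 28.9, 10.5 and 38.7 CPM (-2.32, adjusted p = 0.000485). Of 22 chemokine and homing receptors in all, 8 rose and 5 fell.

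Surface genes of tissue-resident innate lymphocytes (ILC1) fell, 11 of 17 tested, with 2 higher and a median of -1.09. Itga1, which encodes the integrin chain CD49a, was 182, 193 and 156 CPM in flox and 55.1, 34.1 and 55.9 CPM in KO libraries (-1.87, adjusted p = 4.59e-06). Kit, the stem cell factor receptor, was 323, 233 and 326 CPM and 138, 96.5 and 147 CPM (-1.21, adjusted p = 0.000646). Tmem176a fell by 2.43, Tmem176b by 2.27 and Rgs1, a brake on chemokine signalling, by 1.74. No member was called higher without KO replicate 3, and in the fit on the 6 libraries alone 1 rose and 9 fell. The single deletions had medians of 0.12 (Hif1a) and -0.71 (Ahr) for this list. Itga1 fell after Hif1a deletion (-1.88) and Kit after Ahr deletion (-1.86), and in the double KO both were low.

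Inhibitory and costimulatory receptors fell more often than they rose, 10 against 3 of 22. Cd160 was 137, 84.6 and 147 CPM in flox and 40.8, 11.3 and 32.6 CPM in KO libraries (-2.12, adjusted p = 0.00127), and Lag3 was 65.5, 49.5 and 58.4 CPM and 26, 19 and 29 CPM (-1.23, adjusted p = 1.74e-06). Vsir, the gene for VISTA, fell by 1.57, and Entpd1, which encodes the ectonucleotidase CD39, from 137, 175 and 113 CPM to 51, 58.5 and 40.6 CPM. Cd200r1 fell by 1.77 (adjusted p = 0.00144), a call lost in the fit on 6 libraries (0.0587). Pdcd1, which encodes PD-1, rose from 0.0719, 0.131 and 0.146 CPM to 2.1, 2.16 and 2.61 CPM (4.28, adjusted p = 2.68e-07), and Cd300a from 0.484, 0.371 and 0.392 CPM to 2.85, 3 and 4.8 CPM. Both remained low in level after the rise.

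Among activating receptors and adaptors, 11 of 29 fell and 7 rose. Fcgr3, the Fc receptor of antibody-dependent killing, was 125, 117 and 115 CPM in flox and 72.4, 56.5 and 61.3 CPM in KO libraries (-0.91, adjusted p = 4.39e-07). Neither single deletion moved it as far (-0.23 and -0.10), and the double effect differed from both (adjusted p = 0.00381 and 0.000211). The kinase gene Zap70 fell by 0.86, while its relative Syk rose by 0.67. Cd244a fell by 0.77 and Cd48, its ligand, by 0.70. Il12rb1, a chain of the IL-12 receptor, fell by 0.96, whereas Il18r1 rose by 1.22 (adjusted p = 4.72e-09 and 0.000343). Of 23 killer cell lectin-like receptors, 3 rose and 4 fell, near the shares over all genes (14.8% and 16.5%). Klrb1f changed by 1.62 and Klri1 by -1.13. Klrk1, which encodes NKG2D, was not called (0.32, adjusted p = 0.106), but was without flox replicate 3 (0.508, adjusted p = 0.008).

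Transcription factors of NK cells and ILC1 were split, with 10 of 34 higher and 10 lower, with 5 higher without KO replicate 2, and with 6 higher and 8 lower in the fit on the 6 libraries alone. Eomes, which specifies conventional NK cells, was 228, 332 and 248 CPM in flox and 415, 475 and 493 CPM in KO libraries (0.77, adjusted p = 0.00127). Tcf7, which encodes the factor TCF-1 of less differentiated lymphocytes, rose from 36.3, 17.3 and 32.5 CPM to 86.7, 81.9 and 136 CPM (1.82, adjusted p = 0.00182), and Bach2 by 1.35. Prdm1, which encodes the terminal differentiation factor Blimp-1, fell from 85.8, 119 and 72.3 CPM to 42.6, 49.8 and 38.6 CPM (-1.08, adjusted p = 0.000604). Id3 fell by 2.77 (adjusted p = 0.00256) and Irf4 rose by 1.46 (adjusted p = 0.0095), but in the fit on 6 libraries neither was called (0.0535 and 0.103). Tbx21, which encodes T-bet, was not called (0.21).

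Of 18 genes of the IL-2 receptor and its STAT5 targets, 5 rose and 2 fell. Without KO replicate 3, 3 rose and 3 fell, and without flox replicate 2 or flox replicate 3, 3 fell. The risers were Osm, the cytokine inhibitors Socs3 (0.72) and Socs2 (0.27), the receptor chain Il15ra (0.45) and Il2ra (0.73), whose call was lost without KO replicate 3 (0.0525) and in the fit on the 6 libraries (0.0701). Jak3, the kinase of the common cytokine receptor chain, was 285, 288 and 249 CPM in flox and 105, 106 and 122 CPM in KO libraries (-1.31, adjusted p = 2.88e-09), and the survival kinase gene Pim2 fell by 1.23. Bcl2l11, which encodes the death-promoting protein BIM, rose from 119, 102 and 112 CPM to 255, 244 and 357 CPM (1.36, adjusted p = 5.73e-08). Its effect was larger than in either single deletion (adjusted p = 0.031 and 0.000858). Smad3, of the TGF-beta pathway, rose by 0.99, and Mycn fell by 1.76. The transferrin receptor gene Tfrc fell by 0.59 and the ferritin light chain gene Ftl1 rose by 0.61. Of 7 MHC class II genes 2 fell and 1 rose, with a median of 0.22, and 1 fell without flox replicate 1, flox replicate 3 or KO replicate 2. H2-Ab1, a chain of the class II molecule, fell from 40.1, 38.7 and 39.6 CPM to 6.83, 3.72 and 5.35 CPM (-2.90).

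Other lists were smaller or split. Of 29 interferon response genes, 9 rose and 7 fell, but 4 fell without KO replicate 2 or flox replicate 1 and 5 rose without KO replicate 3 or flox replicate 2. Of 22 NRF2 and antioxidant genes 8 rose and 5 fell, of 13 iron genes 6 and 1, and of 19 TGF-beta genes 3 and 4. Of 19 HIF and AhR partner genes 3 rose and 6 fell. These shares stand beside 14.8% higher and 16.5% lower over all genes.

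**Figure D3:**
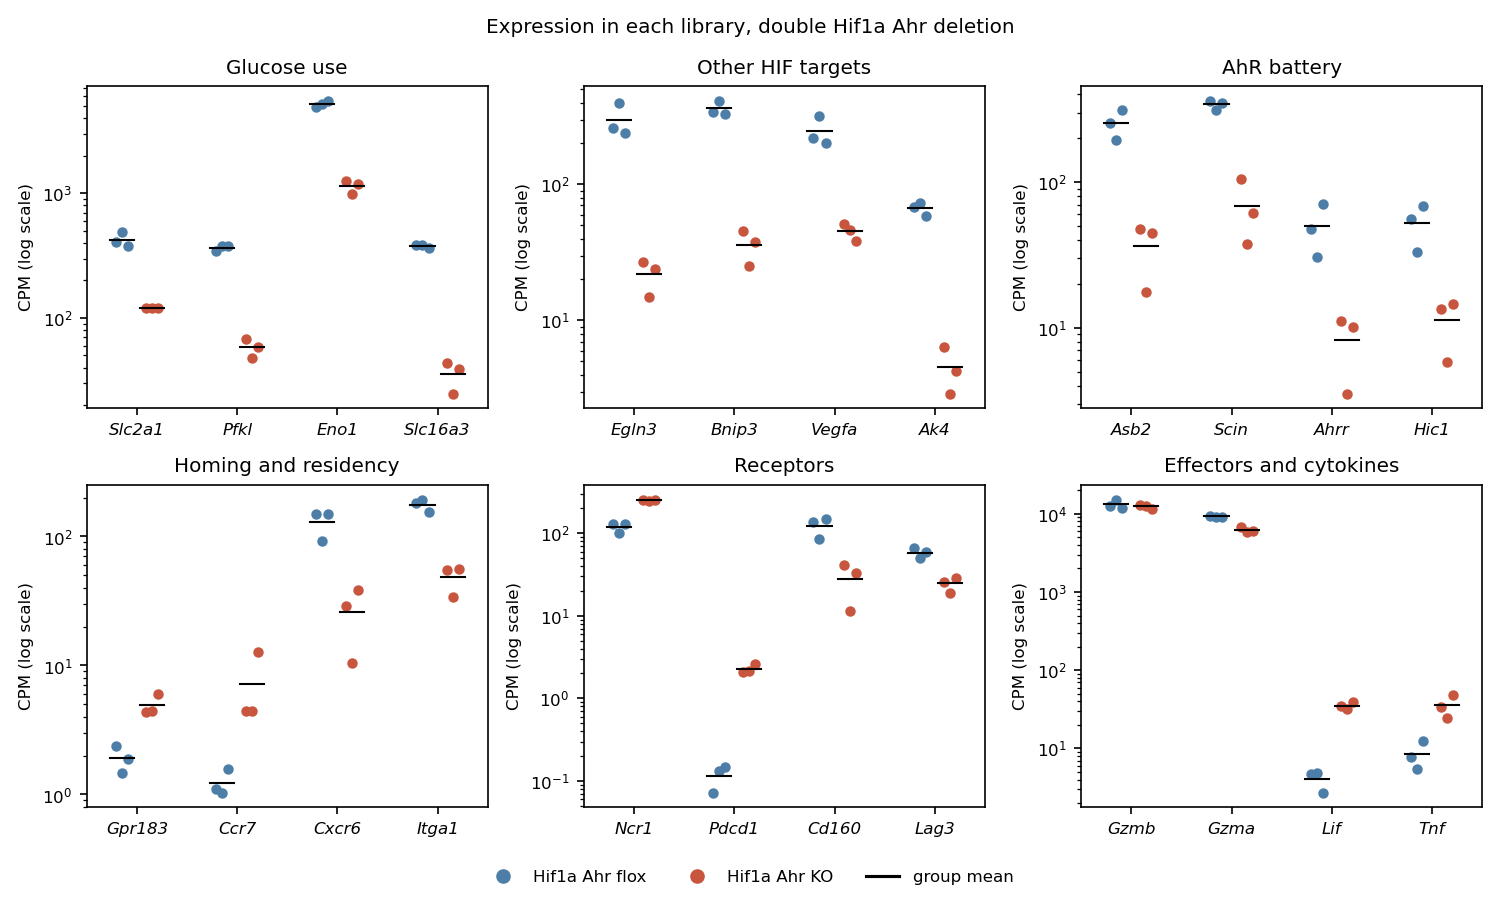
CPM on a log axis for 24 genes in 6 panels, with 1 point per library, blue for the 3 Hif1a Ahr flox and red for the 3 Hif1a Ahr KO libraries, and a black bar at each group mean. The groups do not overlap for any gene shown except Gzmb, and Ccr7 rises from at most 1.58 CPM in flox to at least 4.41 CPM in KO libraries.

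The largest single rises were in genes that were nearly silent in the flox cells. Ccn5, a matricellular protein gene, had 3 counts over the flox libraries and 337 over the KO libraries, a ratio of 112 with a 95% counting interval of 38.1 to 547 that covers counting error only. Ms4a4c, a tetraspan membrane protein gene, went from 0.666, 0.356 and 0.566 CPM to 8.2, 9.66 and 10.9 CPM, and its neighbour in the family Ms4a4b from 55, 35.9 and 47 CPM to 267, 278 and 290.4 CPM. The actin-binding proteins' genes Synpo and Phactr3 rose by 3.70 and 4.13. Bhlhe41, a circadian repressor gene, rose by 3.86, Cmya5 by 3.86 and the vesicular glutamate transporter gene Slc17a6 by 3.88.

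Most of the largest falls were shared with Hif1a deletion alone. Apln, which encodes the peptide apelin, was 19.1, 16.4 and 18.1 CPM in flox and 1.29, 1.05 and 1.31 CPM in KO libraries (-3.88, adjusted p = 6.73e-12), and had the smallest adjusted p of the double deletion among the genes named. Smtnl2 changed by -4.60, Mgarp, a mitochondrial protein gene, by -4.30, the glycogen-targeting subunit gene Ppp1r3g by -4.11 and Plcxd1 by -4.08. Their Hif1a effects were -4.23, -5.07, -4.81, -4.71 and -4.41. Thsd1 fell by 4.00 and Scrt1 by 3.95. Mmp9, a matrix protease gene that neutrophils also carry, went from 2.39, 3.86 and 0.601 CPM to 0.0897, 0.195 and 0.122 CPM, and the neutrophil markers fell beside it. Gda, guanine deaminase, fell by 3.73, against -1.97 and -1.95 in the single deletions.

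How much of this is shared with each single deletion was read from the matching lines, which have their own flox controls. Hif1a deletion changed 35.4% and Ahr deletion 6.92% of all genes tested. By direction, Hif1a deletion raised 17.6% and lowered 17.8%, and Ahr deletion raised 2.14% and lowered 4.78%. Of the genes higher in the double KO, 54.5% were also higher after Hif1a deletion and 6.69% after Ahr deletion. Of those lower, 54.6% and 12.1% were also lower. Against the direction, 53 genes higher in the double KO were lower after Hif1a deletion and 70 after Ahr deletion. Of the genes lower in the double KO, 71 and 33 were higher. Taken the other way, 45.9% of the genes raised by Hif1a deletion and 46.2% of those raised by Ahr deletion were higher in the double KO, as were 50.7% and 41.9% of the lowered genes lower. Across all 16747 genes, the Pearson correlation of the double effect was 0.624 with the Hif1a effect, 0.203 with the Ahr effect and 0.693 with their sum. Over the 1381 genes called and at least 2-fold changed in the double KO it was 0.821, 0.38 and 0.897, a description over genes that were selected on the double effect and are not independent.

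The double effect was then tested against each single effect gene by gene. It differed from the Hif1a effect in 1613 genes (9.63%), with 757 higher (4.52%) and 856 lower (5.11%). It differed from the Ahr effect in 2749 genes (16.4%), with 1439 higher (8.59%) and 1310 lower (7.82%). The first of these counts moved with single libraries. It was 368 higher and 433 lower without Hif1a Ahr flox replicate 1, 1148 and 1213 without flox replicate 2, 1119 and 1286 without Hif1a Ahr KO replicate 1, 378 and 437 without KO replicate 2, and 465 and 617 without KO replicate 3. In the Hif1a line, it was 405 and 452 without flox replicate 1, 392 and 481 without flox replicate 3, 496 and 594 without KO replicate 1, and 341 and 413 without KO replicate 2.

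Against Hif1a loss alone, 5 of 14 AhR battery genes were lower in the double KO and none higher. Asb2, Ahrr and Hic1 had Hif1a effects of -0.13, 0.40 and 1.13 and were lower in the double (adjusted p = 0.00342, 0.0123 and 0.00674). Prr5, a subunit of mTORC2, was 64.6, 67.8 and 71.6 CPM in flox and 27.2, 26.4 and 28.2 CPM in KO libraries (-1.32), while its Hif1a effect was 0.07 (adjusted p of the difference = 4.7e-06). Cd96, a receptor for nectin-like ligands, fell by 0.66 where Hif1a deletion raised it by 0.58. Kit fell where Hif1a deletion raised it by 0.99 (adjusted p = 0.00121). Nrp1, the co-receptor neuropilin-1, rose from 2.41, 2.33 and 2.33 CPM to 11, 9.58 and 13.4 CPM with a Hif1a effect of -0.41 (adjusted p = 0.000141), and Tnfrsf12a rose by 1.39 with one of -0.69. Eomes rose by 0.77 with a Hif1a effect of -0.60 (adjusted p = 0.00214).

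Against Ahr loss alone, the HIF programme was lower. Of 20 glycolysis genes 17 were lower than after Ahr deletion, and of 33 other HIF targets 27. Apln, Pfkl, Eno1 and Pkm had Ahr effects of 0.60, 0.02, -0.03 and -0.03. Ttc39c was higher, from 7.33, 4.39 and 7.99 CPM to 43.4, 40.8 and 49.2 CPM, with an Ahr effect of -0.59 (adjusted p of the difference = 8.54e-08). Tcf7, raised by 1.82 in the double KO, had an Ahr effect of -1.82 and a Hif1a effect of 2.39, and only the difference from the Ahr effect was called (adjusted p = 0.000464 and 0.527).

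Some genes went beyond both single effects. In 73 genes (0.436%) the double effect was above both and in 63 (0.376%) below both, by both tests of the difference. Above were Lif and Ms4a4b, and also Mef2c, a factor of the MADS family, with 6.75, 7.71 and 7.65 CPM in flox and 41.5, 53.8 and 48.9 CPM in KO libraries and a change of 2.71 against 1.54 and 0.73. Below was Arrb1, which encodes β-arrestin 1 for receptor desensitisation, with 356, 365 and 308 CPM and 51.4, 34.8 and 51.6 CPM, a change of -2.90 against -2.31 and -0.39. Gsdme, a pore-forming gasdermin gene, changed by -2.10 against -0.69 and -1.38, and Ripk3, a kinase of necroptosis, by -1.49 against -0.78 and -0.27. Mef2c, Ms4a4b, Arrb1, Gsdme and Ripk3 were chosen for naming after their values were seen. Neither these genes nor Lif were called as departing from the sum of the single effects.

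**Figure D4:**
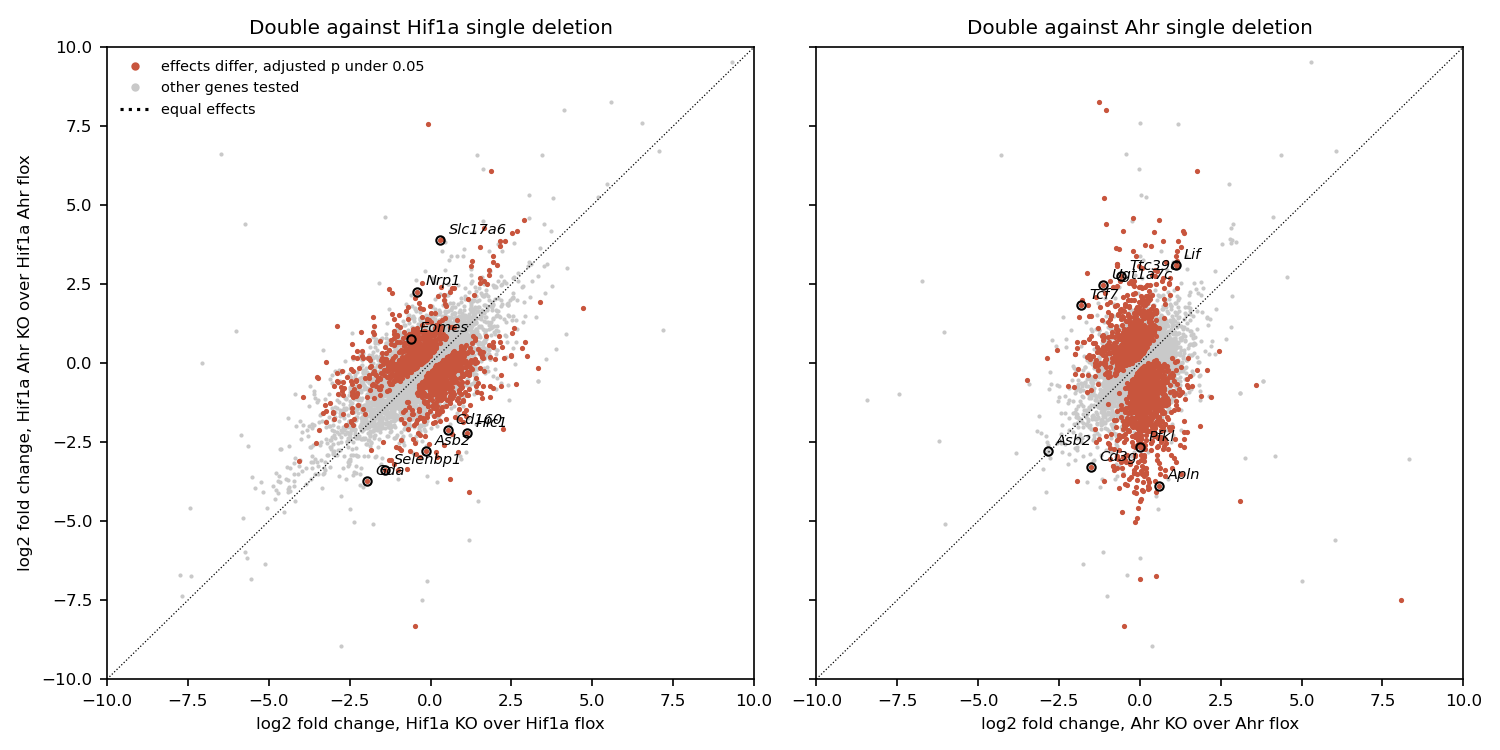
Log2 fold change of the double deletion (vertical axis) against that of Hif1a deletion (left) and Ahr deletion (right) for all 16747 genes, 1 point per gene, red where the 2 effects differ at adjusted p under 0.05, with a dotted line at equal effects. Slc17a6 and Nrp1 lie above and Hic1 and Asb2 below the line on the left, and Pfkl and Apln lie below it on the right, at Ahr effects of 0.02 and 0.60.

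The double effect departed from the sum of the single effects in 6 genes (0.0358%), all higher than the sum, and none lower. The 6 genes, Bnip2, Ppib, Usp3, Rab8b, Snx1 and Tpm1, lie in 1 stretch of 19 neighbouring tested genes on chromosome 9 from Ppib to Bnip2. Each of the 6 genes was lower in all 3 lines' KO groups. Bnip2 changed by -1.03, -0.92 and -0.97, and Ppib by -1.07, -1.11 and -0.94, in the double, Hif1a and Ahr lines. Over the 19 genes, all 19 fell in the double KO with a median of -1.11, 16 fell after Hif1a deletion (median -0.92) and 18 after Ahr deletion (median -0.98). The ends of the stretch were set from these same data, so that its counts of falls are partly fixed by that choice. The next genes outside it, Csnk1g1 and Gtf2a2, changed by 0.62 and 0.49 in the double KO. Outside the stretch edgeR called no departure from the sum among 16728 genes, with 983 (5.88%) at an unadjusted p under 0.05. Over all genes DESeq2 called 20 higher and 4 lower.

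The stretch contains Anxa2, an HIF-responsive annexin gene (-1.80 in the double KO, -2.33 and -0.74 in the singles), Dapk2 (-2.51, -1.46 and -1.36) and Rora, a factor of innate lymphocytes (-1.25, 0.88 and -2.22). Because the stretch was low wherever the Cre was present, the part of it in these values and that of the deletions cannot be told apart.

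**Figure D5:**
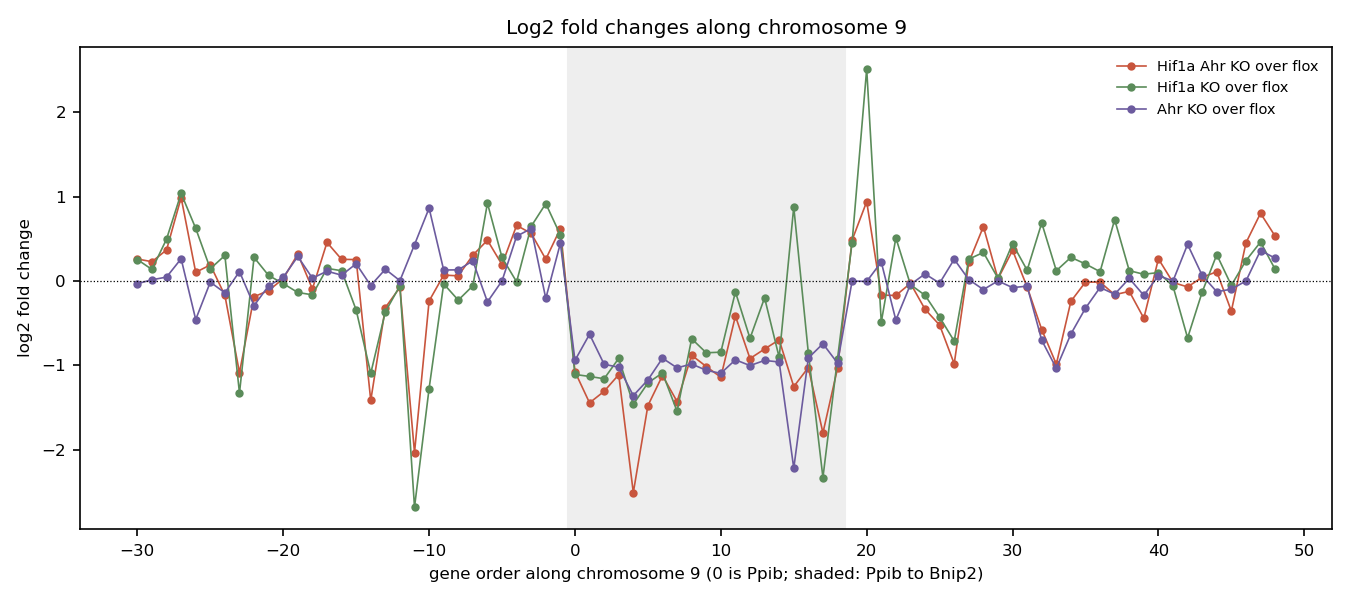
Log2 fold change (vertical axis) of genes in their order along chromosome 9 (horizontal axis, 0 is Ppib), with 30 neighbours on each side, 1 line for each of the 3 KO over flox comparisons and grey shading from Ppib to Bnip2. In the shaded stretch the medians are -1.11, -0.92 and -0.98, and the 3 comparisons part most at Rora, Anxa2 and Dapk2.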

How the data were processed

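RNA of cultured mouse spleen NK cells was sequenced as strand-specific mRNA libraries on a DNBSEQ instrument, per the labels' protocols. The authors deposited expected counts, estimated per gene and mostly not whole numbers, and log2 CPM values. Per the submitters' processing notes reads were handled with kallisto 0.4.6, Trim Galore 0.6.4 and edgeR 3.17, and the build was GRCm39. Recomputing the deposited log2 CPM values from the counts, using a prior count of 2, gave a largest difference of 0.

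Expected counts were tested without rounding with edgeR 4.0.16 in R 4.3.3, and were rounded only for DESeq2. The steps were TMM scaling, edgeR's filter on low counts, and a robust quasi-likelihood fit over all 18 libraries. Benjamini-Hochberg adjustment was over 16747 genes. Differences of effects were contrasts of that fit. Standard errors are the log2 change divided by the square root of F. P-values measure the spread between the labelled biological replicates. Symbols were matched for 52029 of 56953 identifiers. Replicates differed by more than sampling noise. Promoters came from RefSeq (GRCm38.p6).

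The members, lists and tests were chosen with earlier results of these data known. Named genes were the targeted genes; the 12 largest rises and falls and the 6 largest differences in mean CPM each way among called, non-overlapping genes whose mean reached 1 CPM; in each list the called members ranked first by adjusted p, at most 6; the 6 smallest adjusted p each way of each difference of effects; and other list members with their values. Genes ranked by a difference of effects also had no overlap of KO and flox values in at least 1 compared line and a mean of at least 1 CPM. Clones, predicted genes and pseudogenes were left out of the rankings over all genes. Alternatives were RLE scaling, no filter, the 6 libraries alone, a replicate block, DESeq2 1.42.0, voom in limma 3.58.1, leaving out each library, a 1.5-fold threshold and promoters of 150 bases. The code was tested on simulated data. A few items are not reported here.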

Additional observations from a re-analysis of the deposited data

Results flagged for a closer look

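The double effect differed from the Hif1a effect in 1613 genes and from the Ahr effect in 2749, by the test of the difference itself (edgeR, adjusted p under 0.05). The 6 genes per direction that ranked first by adjusted p are given with the difference of the log2 changes.

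Above the Hif1a effect, the difference was 2.68 for Nrp1, 2.08 for Tnfrsf12a, 1.10 for Ninj1, 0.96 for Foxred2, 0.89 for B4galt5 and 0.85 for Sec61a2. Below it, the difference was -1.38 for Prr5, -1.36 for Srr, -1.24 for Cd96, -0.95 for Mvb12b, -0.59 for Ppp2r5a and -0.56 for Itch.

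Above the Ahr effect, the difference was 3.59 for Ugt1a7c, 3.35 for Ttc39c, 2.22 for Ppic, 1.64 for Slc9a9, 1.25 for Ksr1 and 1.11 for Arid5a. Below it, the difference was -4.48 for Apln, -3.91 for Plcxd1, -2.67 for Pfkl, -2.17 for Eno1, -1.95 for Aldoa and -1.90 for Pkm.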

How the results depend on the processing

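Fitted on the 6 libraries of the line alone, the double comparison gave 1544 higher and 1556 lower genes, and RLE scaling, no filter, DESeq2 and limma voom gave 2123 to 2654 higher and 2301 to 2743 lower. At 1.5-fold, 968 genes were higher and 1402 lower. Leaving out single libraries, the double effect was above the Hif1a effect in 341 to 1148 genes and below it in 413 to 1286, and it departed from the sum of the single effects upward in 5 to 9 genes and downward in 0 to 8. Departures from the sum were 20 higher and 4 lower with DESeq2, and 1 was lower with no filter. In 150-base promoters of the lower genes, shares were 14.2% for ACGTG, 23.3% for GCGTG and 4.21% for TNGCGTG. The cause of these moves was not tested, beyond fewer libraries or bases.

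The replicate numbers are not taken as pairs. In deviations from the group means, KO and flox libraries of the same number correlated by 0.067, 0.448 and 0.27 for numbers 1, 2 and 3. Libraries of unlike numbers correlated by -0.365 to 0.088. Flox replicate 1 correlated more with KO replicate 3 (0.088) than with KO replicate 1. Whether the numbers mark pairs is not known. With a replicate block the double comparison had 3036 higher and 3220 lower genes, the difference from the Hif1a effect 1606 and 1553, and the departure from the sum 30 and 5. Of 402 named genes, 21 gained a call with the block and none lost one. Among the gains were Ahr (edgeR, adjusted p = 0.0162), Prf1 (-0.481, 0.0167) and Ifng (0.577, 7.16e-05).

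Of 4821 alternative values for 402 named genes, 4593 kept direction and side of the threshold, 170 lost the call and 53 gained it. The 5 that changed sign were uncalled: Ppp2r5a (-0.046 to 0.033 on leaving out single libraries, positive without KO replicate 3), Gzmb (-0.156 to 0.018, positive without flox replicate 2) and Mki67 (-0.199 to 0.092, positive without flox replicate 1, KO replicate 2 or KO replicate 3).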
